A study of Mus musculus with 6 samples.

Results

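Matricellular proteins and fibronectin were followed in immortalized cardiosphere-derived cells of the mouse before and after induction with 5-azacytidine. The genes were chosen by name, as the 10 genes Postn, Tnc, Thbs1, Thbs2, Thbs3, Thbs4, Sparc, Spp1, Fn1 and Sparcl1. Each name matched a single row of the 54532 genes in the count table. The cells (iCDCs in the labels, iECDCs in the paper, strain C57BL/6, tissue given as heart ventricle) were grown from the epicardium of adult mice and immortalized with human telomerase reverse transcriptase, carried by a lentivirus under a CMV promoter and selected with puromycin. They are thus a selected, immortalized population and not freshly isolated cells. The 3 control libraries are labelled as these cells at passage 30. The 3 induced libraries are labelled as cells at passage 30 given 10 µM 5-azacytidine, an inhibitor of DNA methylation, for 3 days and then kept in IMDM medium with 2% serum for 4 weeks. All 6 libraries carry the telomerase transgene. Fibronectin-coated flasks were used when the cells were first expanded, and whether the cultures sequenced here stood on that coating is not given in the sources used here. The methods of the study describe a shorter later culture in another medium, and routine growth in medium with more serum. Drug, serum and time in culture therefore cannot be told apart. The labels speak of separate samples but do not say whether these were separate cultures, so p-values measure the spread between these libraries, which may be technical.

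Matricellular proteins are secreted into the extracellular matrix but are not main building blocks of its fibres. They bind integrins, collagens, proteases and growth factors, and in this way tune how cells attach and respond. Most of them are scarce in the healthy adult heart and abundant in developing or injured myocardium, where fibroblasts and epicardium-derived cells are known sources. Fibronectin is both a structural and an adhesive glycoprotein, and its fibrils form an early scaffold on which collagen is laid down.

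The drug used for induction blocks methylation of cytosines that stand before a guanine (CG). Promoter sequences are therefore shown for the gene with the largest rise (Postn), for a pair of thrombospondins that moved in opposite directions (Thbs2 and Thbs3), for osteopontin (Spp1), which fell, and for Thbs4, for which no difference was detected. Each run gives the 250 bases before the start of transcription, 5′ to 3′ on the strand of the gene, from RefSeq on GRCm38.p6, with every CG in capitals. The windows are Postn chr3:54360857-54361106 (plus strand), Thbs2 chr17:14694263-14694512 (minus strand), Thbs3 chr3:89214930-89215179 (plus strand), Spp1 chr5:104434861-104435110 (plus strand) and Thbs4 chr13:92794819-92795068 (minus strand).
Postn: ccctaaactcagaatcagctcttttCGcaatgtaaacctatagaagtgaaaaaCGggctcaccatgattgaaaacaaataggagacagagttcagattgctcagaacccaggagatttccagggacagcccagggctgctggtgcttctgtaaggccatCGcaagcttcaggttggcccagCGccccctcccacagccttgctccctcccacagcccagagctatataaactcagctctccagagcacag
Thbs2: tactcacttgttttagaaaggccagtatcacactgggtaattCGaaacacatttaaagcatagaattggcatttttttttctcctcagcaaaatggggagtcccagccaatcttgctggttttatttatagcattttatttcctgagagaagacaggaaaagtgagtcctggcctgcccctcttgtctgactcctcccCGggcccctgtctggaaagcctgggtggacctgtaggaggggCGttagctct
Thbs3: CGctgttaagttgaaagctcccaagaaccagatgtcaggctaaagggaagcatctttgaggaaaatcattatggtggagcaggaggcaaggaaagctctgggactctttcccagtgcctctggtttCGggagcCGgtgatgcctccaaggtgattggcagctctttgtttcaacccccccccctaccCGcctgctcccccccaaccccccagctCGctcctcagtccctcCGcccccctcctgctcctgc
Spp1: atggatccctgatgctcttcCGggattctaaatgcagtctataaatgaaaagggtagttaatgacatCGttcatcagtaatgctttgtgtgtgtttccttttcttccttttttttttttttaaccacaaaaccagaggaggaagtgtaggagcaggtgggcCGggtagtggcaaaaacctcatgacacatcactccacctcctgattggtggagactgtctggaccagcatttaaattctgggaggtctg
Thbs4: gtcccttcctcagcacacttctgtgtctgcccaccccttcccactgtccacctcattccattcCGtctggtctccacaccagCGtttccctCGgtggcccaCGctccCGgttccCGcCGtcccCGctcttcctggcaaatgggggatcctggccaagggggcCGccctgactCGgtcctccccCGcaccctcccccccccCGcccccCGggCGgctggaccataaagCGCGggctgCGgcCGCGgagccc

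A promoter window was available for 7 of the 10 genes (Postn, Tnc, Thbs2, Thbs3, Thbs4, Sparc and Spp1). Fn1, Thbs1 and Sparcl1 had no window. Where a gene had more than 1 window, the window nearest to the 5′ end of the gene in the deposited table was used. The Sparc window belongs to a start 3103 bases inside that end. Over all 32851 mouse windows of the same length, the median number of CG was 6, and 92.1% of windows held at least 1. The 6 genes that changed and had a window held between 3 CG (Thbs2 and Spp1) and 8 CG (Tnc), with 4 in Postn, 4 in Sparc and 6 in Thbs3. Thbs4 held 19 CG, more than 80.3% of all windows, and is the gene of this set without a detected difference that had a window. Methylation itself was not measured in these libraries. The letters TATAAA, searched on both strands, were found in 12.4% of all windows and in 4 of these 7. In Postn they began 26 bases before the start. In Tnc and Spp1 they lay on the strand of the gene, 126 and 211 bases before the start, and in Thbs2 on the opposite strand. The AP-1 letters TGANTCA were found in 0 of these 7 windows and in 6.75% of all windows. The TEAD letters GGAATG were found on the opposite strand in Thbs4, at 2 positions, and in 12.6% of all windows. The SMAD letters CAGAC were found in Thbs2, Thbs4, Sparc and Spp1, and in 42.2% of all windows. The E-box letters CANNTG were found in each of these windows except Postn, and in 66.2% of all windows. No other patterns were searched.

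RNA sequencing gave 19343728 to 19823369 reads in control libraries and 19041133 to 19449606 in induced libraries. Libraries of the same group correlated at 0.994 to 0.996 across genes (Pearson, log2 CPM), libraries of different groups at 0.940 to 0.942, and the first principal component (90.2% of the variance) separated the groups. CPM are read counts scaled to library size with TMM factors. A count of 0 allows up to 0.151 to 0.158 CPM in a library (3 counts over the library total without TMM factors, counting error only). After a filter on low counts, 14246 genes were tested, and all 10 genes of the set passed it. Differences are log2 fold changes, induced minus control, from the quasi-likelihood test of edgeR, with p-values adjusted over all genes tested by the method of Benjamini and Hochberg and called at 0.05. The cardiosphere cell surface genes Eng, Thy1 and Ly6a were present in every library (summed level 503 to 508 CPM in control and 563 to 595 CPM in induced libraries). Most of this sum was Eng. Eng and Thy1 were called higher (log2 fold changes 0.12 and 0.54) and Ly6a was called lower (-0.57). Endothelial markers were at or near 0, with summed levels of 1.21 to 2.31 CPM over both groups. In bulk RNA, fewer cells of a type and less RNA per cell cannot be told apart.

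The first question was how the 10 genes differed between induced and control cells. Postn, Sparc, Thbs2 and Tnc rose. Thbs3, Thbs1, Spp1 and Fn1 fell. Sparcl1 and Thbs4 were not past the threshold. Thus 8 of 10 genes were called (80%), against 64.8% of all genes tested, with 4 higher (32.6% of all genes tested) and 4 lower (32.2%). The ranges of the groups did not overlap for the same 8 genes, as for 68.6% of all genes tested. The change was at least 2-fold for 5 of the 10 genes (Postn, Sparc, Thbs1, Thbs3 and Spp1), against 17.1% of all genes tested. The median log2 fold change of the 10 genes was 0.14, and that of all genes tested was -0.01.

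**Figure D1:**
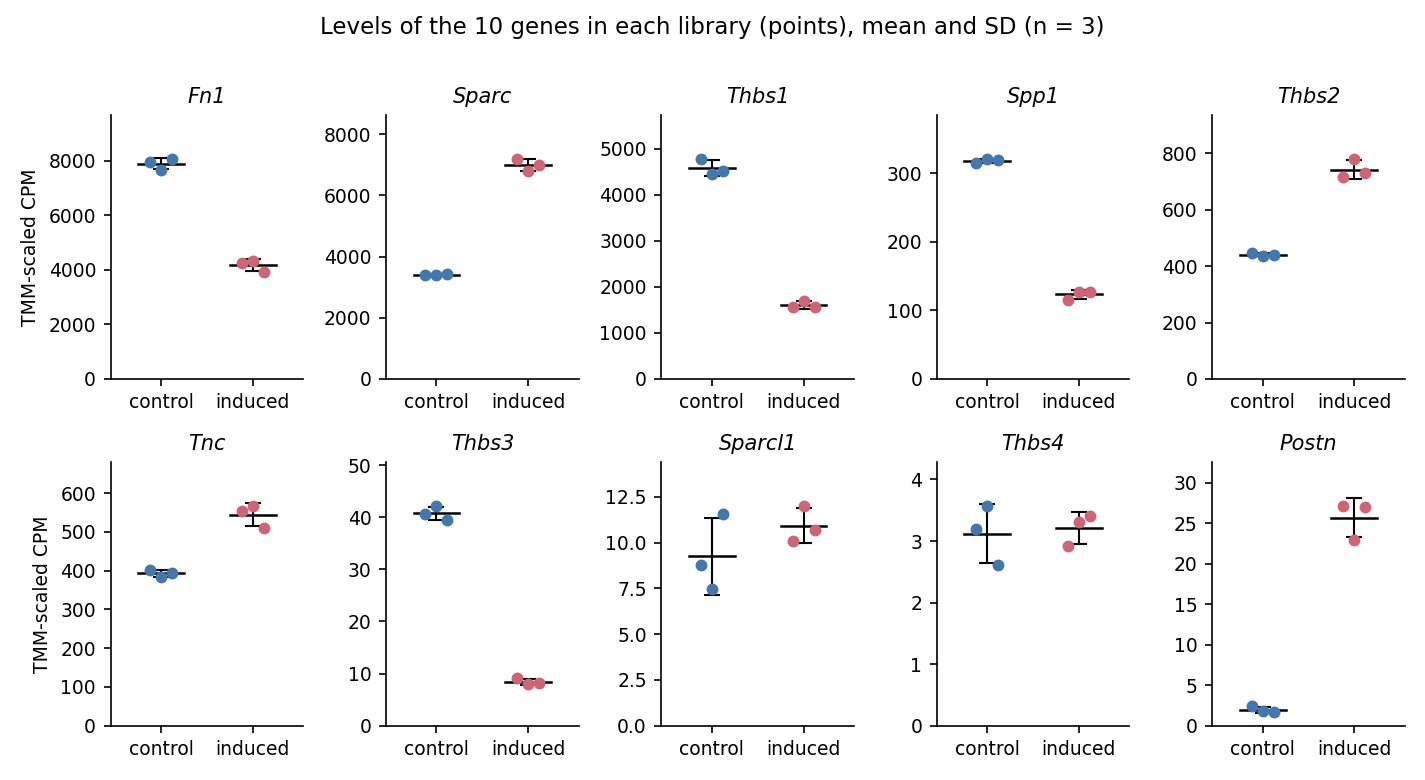
Each panel gives the TMM-scaled CPM (vertical axis, linear from 0, a scale of its own per gene) of a gene in 3 control libraries (blue) and 3 induced libraries (red), with the mean as a horizontal line and the SD as a bar. In 8 panels the groups stand apart, while for Sparcl1 (7.44 to 11.99 CPM) and Thbs4 (2.60 to 3.57 CPM) they overlap.

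Thrombospondins are large calcium-binding glycoproteins that regulate adhesion, vessel growth and, in the case of Thbs1, activation of latent TGF-beta. Thbs1 (ENSMUSG00000040152, chromosome 2, 118111876 to 118127133, plus strand) had 4771, 4459 and 4521 CPM in the control libraries. The induced libraries had 1565, 1702 and 1559 CPM. Every induced library lay far under every control library, and Thbs1 was 2.85-fold lower (log2 fold change -1.51, SE 0.04, edgeR adjusted p 2.06e-15). Thbs2 is its closest relative and, like it, restrains vessel growth. Thbs2 (ENSMUSG00000023885, chromosome 17, 14665500 to 14694235, minus strand) moved the other way. It had 446, 436 and 439 CPM in control libraries and 716, 779 and 731 CPM in induced libraries. The groups did not overlap, and the level was 1.68-fold higher in induced cells (log2 fold change 0.75, SE 0.04, edgeR adjusted p 4.65e-11).

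Thbs3 (ENSMUSG00000028047, chromosome 3, 89215180 to 89226837, plus strand) is a thrombospondin of the subgroup that lacks the antiangiogenic repeats. It had 40.6, 42.1 and 39.6 CPM in control libraries and 9.14, 8.05 and 8.18 CPM in induced libraries. The fall was the largest of the 10 genes, 4.82-fold (log2 fold change -2.27, SE 0.08, edgeR adjusted p 3.75e-14). Of its exon bases, 6.59% overlap Mtx1 on the opposite strand, and the strand setting of the counting is not given, so reads there are uncertain. Mtx1, a component of the mitochondrial outer membrane, had 24.2 ± 1.12 CPM before and 22.5 ± 1.18 CPM after induction (SD of 3 libraries, log2 fold change -0.10, edgeR adjusted p 0.249). Thbs4 (ENSMUSG00000021702, chromosome 13, 92751590 to 92794818, minus strand), which belongs to the same subgroup as Thbs3 and is known from stressed heart and muscle, was scarce. Its levels were 3.19, 3.57 and 2.60 CPM in control and 2.92, 3.31 and 3.41 CPM in induced libraries. These values are interleaved. The log2 fold change was 0.04 with a 95% interval of -0.36 to 0.45 (edgeR adjusted p 0.855), so a level between 0.779-fold and 1.36-fold of control lay within the interval, and a smaller change was not detectable at 185 control and 183 induced reads.

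Within each library the make-up of the thrombospondins per length shifted. FPKM, the deposited level per gene length and library depth, allows genes to be compared with each other only as far as that length holds. For every gene of the set, the length equals the annotated exon bases of the gene. The length of the transcripts made in these cells was not measured. Orders, shares and ratios between genes in FPKM therefore depend on this length, while the change of a single gene between groups does not. Of the summed FPKM of the 4 genes, Thbs1 took 91.3 ± 0.212% in control and 70.9 ± 0.291% in induced cells (SD, n = 3). Thbs2 took 7.61 ± 0.161% and 28.4 ± 0.274%. The sum itself was 819 ± 28.0 FPKM in control and 373 ± 17.3 FPKM in induced cells. The ratio of Thbs1 to Thbs2 was 12.3, 11.8 and 11.9 in control libraries and 2.52, 2.52 and 2.46 in induced libraries. This difference of -2.26 on the log2 scale had a p of 0.1 by the two-sided exact permutation test, the smallest that 3 libraries against 3 allow.

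SPARC is a collagen-binding glycoprotein that helps procollagen on its way into fibres. Sparc (ENSMUSG00000018593, chromosome 11, 55394500 to 55423183, minus strand) had 3397, 3382 and 3431 CPM in control libraries. It had 7181, 6792 and 6984 CPM in induced libraries, 2.05-fold more (log2 fold change 1.04, SE 0.04, edgeR adjusted p 2.56e-14). Among all genes, Sparc stood at rank 30 by mean FPKM in control cells and at rank 9 in induced cells. Sparcl1 (hevin; ENSMUSG00000029309, chromosome 5, 104079111 to 104113733, minus strand), its closest relative, had 8.77, 7.44 and 11.6 CPM in control and 10.1, 11.99 and 10.7 CPM in induced libraries. The groups overlapped through control replicate 3, and the log2 fold change was 0.24 with a 95% interval of -0.06 to 0.53 (edgeR adjusted p 0.147, and 0.00945 to 0.559 over the alternatives). Without control replicate 3 the log2 fold change was 0.44 with an edgeR adjusted p of 0.00945, so this library decides the call. The ratio of Sparc to Sparcl1 in FPKM was 229.9 to 352.5 in control and 439 to 551 in induced libraries, with ranges that did not overlap (difference of 0.78 on the log2 scale, two-sided exact permutation p 0.1, the smallest possible).

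Fibronectin, tenascin-C and periostin are matrix glycoproteins that meet in provisional and scar matrix. Fn1 (ENSMUSG00000026193, chromosome 1, 71585520 to 71653200, minus strand) had the most reads of the 10 genes in control cells. Its levels were 7957, 7676 and 8058 CPM in control and 4270.5, 4333 and 3937 CPM in induced libraries. It was 1.89-fold lower after induction (log2 fold change -0.92, SE 0.04, edgeR adjusted p 7.91e-13). Of the main fibronectin receptor, the alpha subunit Itga5 fell, from 171 ± 4.54 to 98.4 ± 4.62 CPM (SD of 3 libraries, log2 fold change -0.80, edgeR adjusted p 1.61e-10). The beta subunit Itgb1, which many integrins share, rose from 794 ± 3.46 to 1084 ± 46.0 CPM (SD of 3 libraries, log2 fold change 0.45, edgeR adjusted p 3.52e-08). Itgav, which also pairs into fibronectin-binding integrins, rose as well (log2 fold change 0.34). These subunits were singled out after their values were seen.

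Tnc (ENSMUSG00000028364, chromosome 4, 63959785 to 64047015, minus strand), which weakens the hold of cells on fibronectin, had 402, 383 and 393 CPM in control and 554, 566 and 510.1 CPM in induced libraries. The rise was the smallest of the 4, 1.38-fold, and the groups did not overlap (log2 fold change 0.47, SE 0.05, edgeR adjusted p 8.48e-08). The ratio of Fn1 to Tnc in FPKM lay between 13.2 and 13.7 in control and between 5.09 and 5.13 in induced libraries (difference of -1.39 on the log2 scale, two-sided exact permutation p 0.1).

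Postn (ENSMUSG00000027750, chromosome 3, 54361109 to 54391037, plus strand) encodes a fasciclin-domain protein that promotes collagen cross-linking and marks activated cardiac fibroblasts after injury. It was the scarcest of the 10 genes in control cells, with 2.38, 1.83 and 1.65 CPM (116 reads in all). In induced cells it had 27.1, 22.9 and 27.0 CPM (1462 reads). The rise was the largest of the set, 13.1-fold with a 95% interval of 10.8 to 16.0 (log2 fold change 3.71, SE 0.14, edgeR adjusted p 4.22e-14), and larger in size than the change of 98.1% of all genes tested. Its level nevertheless stayed low, at 2.95 ± 0.279 FPKM (SD, n = 3). Its relative Tgfbi, another fasciclin-domain matrix protein, moved the other way, from 58.2 ± 2.41 to 15.5 ± 2.09 CPM (SD of 3 libraries, log2 fold change -1.91, SE 0.08, edgeR adjusted p 3.13e-13). The ratio of Postn to Tgfbi in FPKM was 0.0118 to 0.0185 in control and 0.559 to 0.860 in induced libraries (difference of 5.64 on the log2 scale, two-sided exact permutation p 0.1).

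Spp1 (ENSMUSG00000029304, chromosome 5, 104435118 to 104441050, plus strand) encodes osteopontin, a phosphoprotein that binds integrins and CD44. It had 315, 320.3 and 319 CPM in control and 116, 127 and 127 CPM in induced libraries. It was 2.58-fold lower in induced cells (log2 fold change -1.37, SE 0.05, edgeR adjusted p 4.16e-14). Of its exon bases, 18.8% overlap the gene model Gm42793 on the same strand, so part of its reads is uncertain. Of its receptors, Cd44 fell as well, from 94.0 ± 2.55 to 32.9 ± 3.31 CPM (SD of 3 libraries, log2 fold change -1.51, SE 0.07, edgeR adjusted p 4.23e-13). Of the integrin subunits tested, Itgav, Itgb1, Itgb5, Itgb8, Itga8 and Itga9 were called higher, Itga5 lower, and Itgb3 was not called. Spp1 lies at the end of a cluster of secreted phosphoprotein genes on chromosome 5 that begins beside Sparcl1. The other 4 genes of that cluster, chosen after their values were seen, had few or no reads: Dspp had 5 in control and 0 in induced cells, Dmp1 had 5 and 24, Mepe had 1 and 0, and Ibsp had 0 in both.

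**Figure D2:**
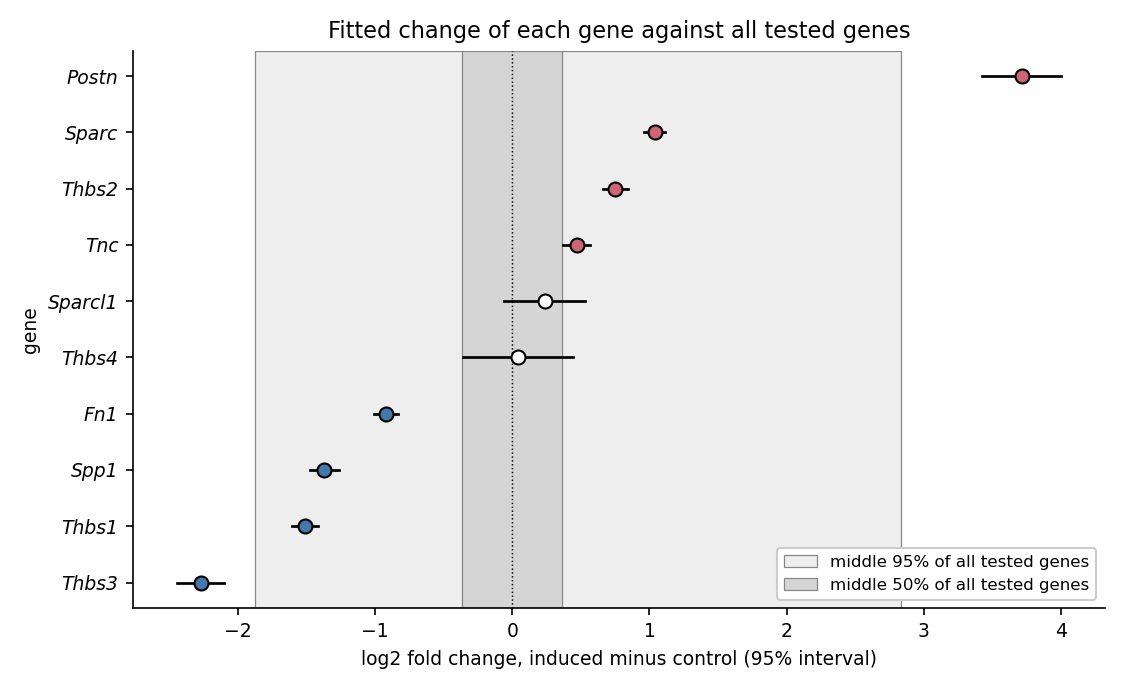
Points give the fitted log2 fold change, induced minus control (horizontal axis), of each gene (vertical axis) with its 95% interval; red is called higher, blue called lower and white not called. Shading marks the middle 50% (-0.37 to 0.36) and the middle 95% (-1.87 to 2.83) of all genes tested, and only Postn and Thbs3 lie outside the wider band.

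By level per length, the order of the genes in control cells was Sparc (890.0 ± 8.38 FPKM), Thbs1 (748 ± 27.3 FPKM), Fn1 (669 ± 18.2 FPKM), Spp1 (191 ± 1.77 FPKM), Thbs2 (62.3 ± 0.833 FPKM), Tnc (50.03 ± 1.23 FPKM), Thbs3 (8.37 ± 0.248 FPKM), Sparcl1 (3.12 ± 0.718 FPKM), Thbs4 (0.940 ± 0.144 FPKM) and Postn (0.223 ± 0.0431 FPKM; SD, n = 3). No neighbours in this order had overlapping ranges. In induced cells the order was Sparc (1841 ± 53.8 FPKM), Fn1 (357 ± 17.9 FPKM), Thbs1 (264 ± 12.9 FPKM), Thbs2 (106 ± 4.56 FPKM), Spp1 (74.6 ± 3.82 FPKM), Tnc (69.8 ± 3.74 FPKM), Sparcl1 (3.71 ± 0.324 FPKM), Postn (2.95 ± 0.279 FPKM), Thbs3 (1.75 ± 0.126 FPKM) and Thbs4 (0.976 ± 0.0773 FPKM). Here the ranges of Spp1 and Tnc overlapped, and those of all other neighbours did not. Fn1 and Thbs1 changed places, and so did Thbs2 and Spp1. Lower in the order, Thbs3 went from rank 7 to 9, Postn from 10 to 8, Sparcl1 from 8 to 7 and Thbs4 from 9 to 10. Fn1 and Thbs1 were close in control cells, so their order there depends on the gene length used, here the annotated exon bases. Whether Fn1 and Thbs1 changed places depends on that length as well.

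The summed FPKM of the 10 genes was 2623 ± 45.02 in control and 2722 ± 42.0 in induced cells (SD, n = 3). Sparc took 33.4% to 34.3% of it in control libraries and 66.1% to 68.5% in induced libraries. Thbs1 took 28.5 ± 0.695% in control and 9.72 ± 0.541% in induced cells, and Fn1 took 25.5 ± 0.360% and 13.1 ± 0.580%. By reads, the 10 genes took 1.73 ± 0.0323% of each control library and 1.40 ± 0.0360% of each induced library. Fn1 has a gene length of 11685 bases and Sparc of 3788 bases, so a read of Fn1 adds less to the sum of FPKM than a read of Sparc. These lengths are annotated exon bases, and other lengths would give other shares.

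**Figure D3:**
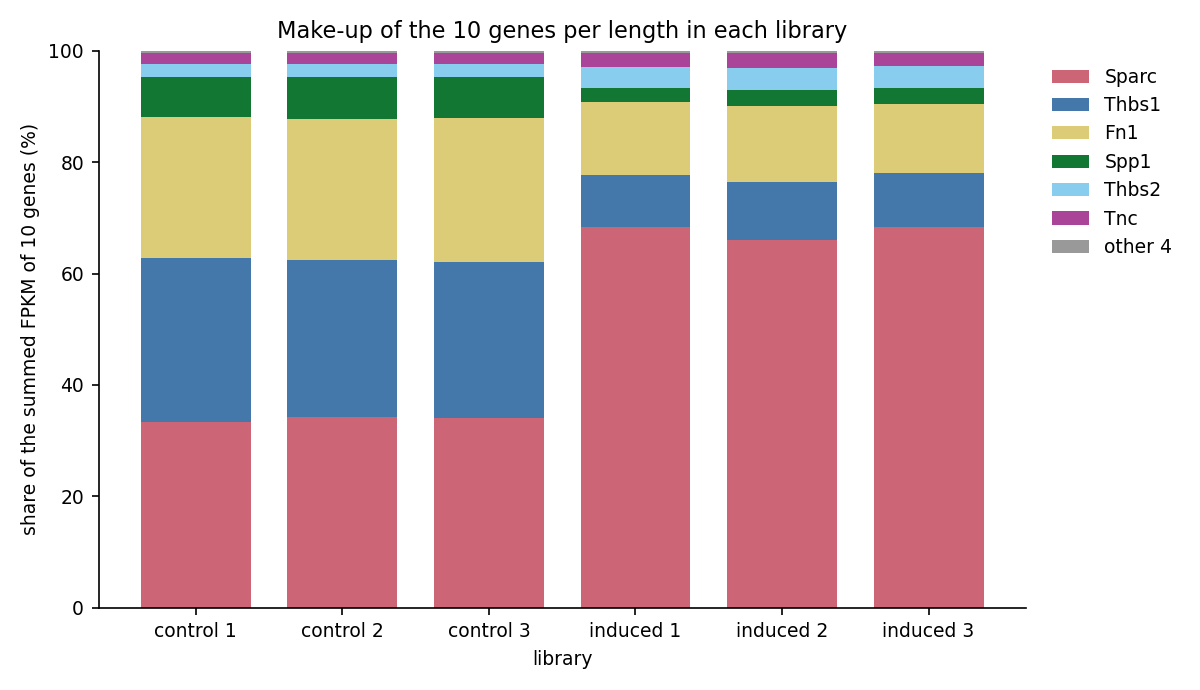
Stacked bars, 1 per library (horizontal axis), give the share of each gene in the summed FPKM of the 10 genes (vertical axis, percent, from 0 to 100), with Thbs3, Sparcl1, Thbs4 and Postn joined as the other 4. Sparc fills 33.4% to 34.3% of the control bars and 66.1% to 68.5% of the induced bars, and the blocks of Thbs1, Fn1 and Spp1 are smaller in all 3 induced bars.

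The second question was how relatives, receptors and regulators of these genes behaved, read against 64.8% called and a median log2 fold change of -0.01 over all genes tested. Of the relatives (CCN proteins, other tenascins, SPARC-related proteins and Tgfbi), 12 of 17 were tested, with 7 higher and 4 lower (91.7% called, median log2 fold change 0.41). Ctgf, the CCN protein best known from fibrosis, rose from 157 ± 3.16 to 476 ± 19.4 CPM (SD of 3 libraries, log2 fold change 1.60), although 23.2% of its exon bases overlap an antisense gene. Smoc2, a SPARC-related protein, rose from 7.47 ± 0.456 to 45.3 ± 1.27 CPM (log2 fold change 2.60). Tgfbi fell, as given above. Spock1 had 0 reads in control and 46 in induced libraries and was not tested.

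Receptors of these proteins were mostly higher. Of 22, 19 were tested, with 12 higher and 5 lower (89.5% called, median log2 fold change 0.28). The integrin subunit Itgb5, which pairs with Itgav on vitronectin and other ligands, rose from 128 ± 2.24 to 474 ± 23.4 CPM (SD of 3 libraries, log2 fold change 1.88). Itga8, whose integrin binds fibronectin, tenascin-C and osteopontin among others, rose from 1.14 ± 0.400 to 22.7 ± 2.13 CPM (log2 fold change 4.30). Of 5 receptors of thrombospondins picked from the list, Lrp1, Calr and Cd47 rose, with log2 fold changes of 0.45, 0.28 and 0.12 (edgeR adjusted p 2.23e-08, 1.27e-05 and 0.0445). Cacna2d1 fell from 46.5 ± 1.95 to 29.6 ± 1.54 CPM (SD, n = 3, edgeR adjusted p 5.15e-08), and Cd36, not tested, had 0 reads in control and 3 in induced libraries. These 5 were named after their values were seen.

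Of the genes for assembly and proteolysis of matrix, 23 of 25 were tested, with 14 higher and 8 lower (95.7% called, median log2 fold change 0.28). Loxl2, which cross-links collagen, rose from 154 ± 5.91 to 335 ± 10.2 CPM, and Ctsk, a collagen-cleaving protease, from 32.4 ± 2.94 to 84.9 ± 5.51 CPM (SD of 3 libraries, log2 fold changes 1.12 and 1.39). Adamts4, a proteoglycan-cleaving protease, fell from 49.8 ± 1.63 to 20.03 ± 1.54 CPM (log2 fold change -1.31). Bmp1, the procollagen protease that periostin binds, fell from 423 ± 15.2 to 275 ± 9.41 CPM (log2 fold change -0.62) while Postn rose. It was singled out after its value was seen.

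All 22 genes of the TGF-beta pathway list were tested, with 14 higher and 6 lower (90.9% called, median log2 fold change 0.44). Ltbp2, a fibrillin-binding relative of the latent TGF-beta binding proteins, rose from 14.1 ± 1.05 to 201 ± 16.5 CPM (SD of 3 libraries, log2 fold change 3.84). Smad6, an inhibitory SMAD, rose from 33.4 ± 1.90 to 111 ± 5.13 CPM (SD of 3 libraries, log2 fold change 1.73). Ltbp1, which stores latent TGF-beta in the matrix, fell from 86.7 ± 3.68 to 10.3 ± 0.169 CPM (log2 fold change -3.07). Of the YAP, TEAD and SRF list, 18 were tested, with 10 higher and 5 lower (83.3% called, median log2 fold change 0.29). Amotl2, a feedback target of YAP, rose from 336 ± 6.86 to 772 ± 20.6 CPM, and Nuak2 from 9.84 ± 0.327 to 38.9 ± 2.40 CPM (SD, n = 3). Tead2, a DNA-binding partner of YAP, fell from 98.9 ± 3.46 to 24.2 ± 0.700 CPM.

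The fibroblast list joins genes of activated fibroblasts with general fibroblast genes such as Pdgfra, Pdgfrb, Ddr2 and Tcf21, and Tcf21 is also among the epicardial markers. Of its 19 genes, 17 were tested, with 5 higher and 10 lower (88.2% called, median log2 fold change -0.36). Col8a1, a short-chain collagen, rose from 43.0 ± 1.02 to 294 ± 10.3 CPM (SD of 3 libraries, log2 fold change 2.77), and Ltbp2, which this list shares with the TGF-beta list, is given above. Acta2, the smooth muscle actin of myofibroblasts, fell from 945 ± 30.7 to 489.5 ± 31.2 CPM (log2 fold change -0.95, SE 0.05, edgeR adjusted p 7.21e-12). Of the general fibroblast genes, Pdgfra and Pdgfrb fell (log2 fold changes -0.73 and -0.27) and Tcf21 and Ddr2 rose (1.49 and 0.21).

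**Figure D4:**
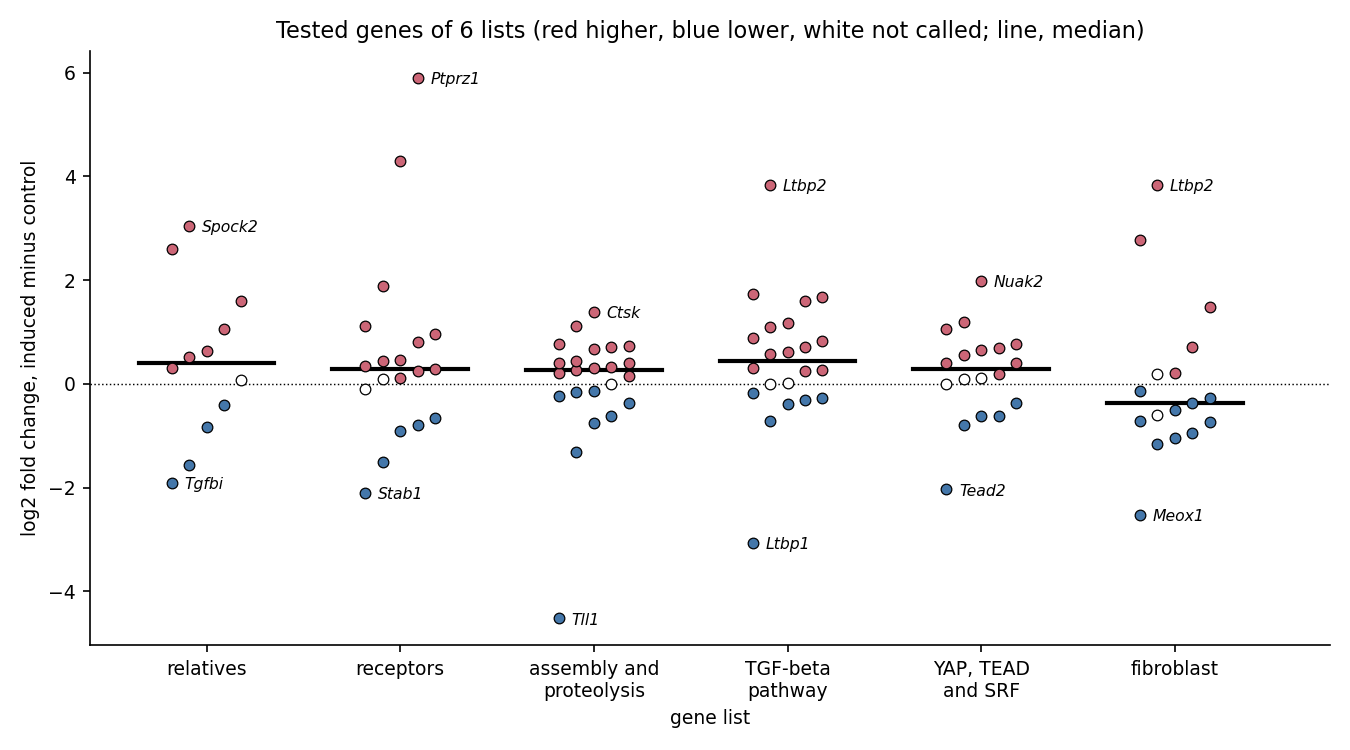
Each point is a tested gene of a list (horizontal axis) with its log2 fold change, induced minus control (vertical axis), in red if called higher, blue if lower and white if not called, and the bar is the median of the list. Genes with the largest rise and fall in each list are named, and the fibroblast list is the 1 with a median under 0 (-0.36).

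Markers of other cell types were read beside these values. Of 8 macrophage markers, 5 (Ptprc, Adgre1, Tyrobp, Itgam and C1qa) had 0 reads in all 6 libraries, and the summed level of the list was 27.2 to 30.1 CPM in control and 50.9 to 58.7 CPM in induced libraries, the rest being Csf1r, Cd68 and Lyz2. Csf1r, most of the control sum, fell from 22.6 ± 1.05 to 10.9 ± 0.673 CPM, while Cd68 rose from 1.95 ± 0.217 to 29.2 ± 2.77 CPM and Lyz2 from 3.76 ± 0.637 to 14.6 ± 1.25 CPM (SD, n = 3). Of 7 osteoblast and chondrocyte markers, Ibsp was at 0, and the summed level was 44.5 to 51.3 CPM in control and 15.5 to 20.4 CPM in induced libraries, almost all from Runx2 and Sox9, which fell with Spp1. The summed level of 9 epicardial and mesothelial markers was 520.5 to 531 CPM in control and 2022 to 2211 CPM in induced libraries. Most of this rise came from Upk3b (mean 254 to 942 CPM), Upk1b (117 to 766 CPM) and Msln (28.1 to 226 CPM). Of the 9 markers, 7 were called higher and 2 lower. The lower markers were Krt19 (log2 fold change -1.24) and Tbx18 (-0.33), the gene by which the paper names these cells. Of the exon bases of Tbx18, 20.6% overlap an antisense gene. Of 8 cardiomyocyte markers the summed level was 13.1 to 16.1 CPM in control and 60.0 to 63.8 CPM in induced libraries, most of it Tnnt2. Tnnt2 and Myl7 were called higher and Tnni3 was not called. The others were not tested: Myh6 had 0 reads in control and 1 in induced libraries, and Myh7 had 3 and 4. Actc1 had 6 and 4 reads, Nppa 0 and 4, and Ryr2 1 and 29. The summed level of 5 mural cell markers was 73.5 to 78.9 CPM and 38.5 to 39.3 CPM, with 2 higher (Myh11 and Des) and 2 lower (Cnn1 and Notch3), and Notch3 made up most of it. That of 4 Schwann cell markers, with Sox10 at 0, was 1.02 to 1.52 CPM and 1.84 to 2.20 CPM. The proliferation genes Mki67, Top2a and Ccnb1 summed to 390.2 to 407 CPM in control and 102 to 111 CPM in induced libraries. The part of these shifts in the changes of the 10 genes was not tested.

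The nearest protein-coding genes at the 10 loci were 21, of which 14 were tested, with 7 higher and 4 lower, against 32.6% higher and 32.2% lower of all genes tested. Those named here were chosen after their values were seen. Thbs2 and its neighbour Smoc2, 260709 bases apart on chromosome 17, both rose. Fn1 and its neighbour Atic, 5888 bases apart on chromosome 1, both fell, and Atic had a log2 fold change of -0.57. Pkd2, 18399 bases from Spp1, had a log2 fold change of 0.48 while Spp1 fell. Trpc4, 42637 bases from Postn, had 1.92 ± 0.442 CPM before and 1.60 ± 0.251 CPM after induction (SD, n = 3, edgeR adjusted p 0.389). Muc1, 2219 bases from Thbs3, had a log2 fold change of -0.77, against -2.27 for Thbs3.

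The genes closest in level and change over the 6 libraries were sought for the largest riser and the largest faller, by the Euclidean distance of log2 CPM. Closest to Postn were Serpind1 (distance 0.404), Fibin (0.435) and Il17re (0.538), which rose by 3.62, 3.78 and 3.63 on the log2 scale. Closest to Thbs3 were Dlgap5 (distance 0.251), Pclaf (0.318) and Fosl1 (0.349), with log2 fold changes of -2.26, -2.48 and -2.17, and 57.2% of the exon bases of Fosl1 overlap another gene. This likeness covers only the level and change over 6 libraries of 2 groups.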

How the data were processed

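The authors deposited a table of 54532 Ensembl genes holding, for each library, unnormalized read counts and FPKM values. The submitters' processing notes name HISAT2 2.0.5, featureCounts 1.5.0-p3, DESeq2 1.16.1 and build mm10, while the strand setting is not given in the sources used here. In the deposited FPKM, counts are divided by gene length and by a depth of 0.980 to 1.03 times the library total. Coordinates equal GENCODE M21 on GRCm38 for 98.3% of the 54409 shared genes. The deposited columns of the authors' own comparison and enrichment tables were not used.

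Counts were tested in R 4.3.3 with edgeR 4.0.16 (filterByExpr with minimum count 10 and total 15, TMM, quasi-likelihood test of 3 induced against 3 control libraries without covariates, Benjamini-Hochberg at 0.05). This left 14246 genes with 99.9% of the reads, and the biological coefficient of variation was 5.82%. The SE of a log2 fold change is its size over the square root of the F statistic. None was merged, since libraries of a group differed by more than sampling noise (chi-square 2.56 to 8.91 per degree of freedom). Ratios of FPKM were tested by the exact permutation test over 20 assignments. In Thbs1 to Thbs2, Fn1 to Tnc and Postn to Tgfbi, both genes moved in opposite directions without overlap of the groups. The separation of these ratios and their p of 0.1 by that test followed from the single genes and add no evidence of their own. The script was tested on simulated data. Deviations of same-numbered libraries correlated at -0.03, -0.03 and 0.03, so no pairing by number was detected. Such correlations cannot show that the samples were unpaired. Promoter motifs were counted in Python on both strands of the 250 bases before each start.

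The 10 genes, the lists and the tests were chosen with earlier results of these data known. Named genes are the 10, up to 3 genes per list with the smallest p, the ratio partners and the closest profiles, and others are said to be singled out. Alternatives were a replicate block, each library left out in turn, limma 3.58.1 on log2(FPKM + 0.1) or log2(FPKM + 1), DESeq2 1.42.0, median-ratio factors, library totals, a threshold of 0.01, and a filter that was absent or stricter (at least 1 CPM in 3 libraries with a mean count of 10).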

Additional observations from a re-analysis of the deposited data

How the results depend on the processing

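All 8 called genes of the set kept their direction and their call under every alternative run, and 8 of 10 genes were called under each except without control replicate 3, where 9 were. Of 150 values of the 10 genes under alternatives, 148 kept direction and side of the threshold. The exceptions came without control replicate 3: Sparcl1 passed the threshold (0.44, edgeR adjusted p 0.00945), and the log2 fold change of Thbs4 was -0.0675 in place of 0.04, at an edgeR adjusted p of 0.800 (range -0.0675 to 0.147 when a library was left out). Postn had the widest range of values, from 1.69 (limma, log2(FPKM + 1), a pseudocount that shrinks changes of low genes) to 3.88. All 345 values of the 23 other genes named by rule (up to 3 per list, ratio partners and closest profiles) kept direction and call. Markers and genes singled out after their values were seen are not among these 23. Some of those, such as Cd47 and Eng (edgeR adjusted p 0.0445 and 0.0190), were past 0.05 but not past 0.01. Over all genes, 7783 to 9765 were called, with 8514 to 9348 when a library was left out. With library totals the median over all genes went from -0.01 to -0.04 and the calls to 4285 higher and 4933 lower. The replicate block called 9063 genes and the same 8 of the set, and changed no call among them. Whether the numbers pair the samples is not known. Of 108 other listed genes tested, 97 were called, and 91 to 100 under the alternatives. The order of levels was the same on TMM-scaled library sizes. Such scaling multiplies all genes of a library alike, so it cannot change the order within a library. At 183 to 185 reads per group, depth limits what can be said of Thbs4.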
